A study of Oryza sativa with 6 samples.

Results

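The 43 genes described here encode the heat-shock proteins and heat stress factors of rice (Oryza sativa) that an Affymetrix Rice Genome Array measured in flag leaves, the leaf just under the panicle. They were taken by name, with earlier results of these data known. A gene belongs if its RefSeq symbol or a synonym starts with HSP and a number, or with HSFA, HSFB or HSFC. The prefix Os may stand before these. The members are 43 of the 17905 genes with a probe set of their own. Each is represented by its probe set with the highest mean over the arrays. Of the 49 RefSeq genes whose names match, 6 (HSP16.9C, HSP18.9, HSP19.0, HSFA6A, HSFB4C and HSFC2B) had no such probe set in the annotation used and were not analysed here.

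RNA came from 6 untreated samples of the japonica cultivar Zhonghua11, 3 of the wild type and 3 of a mutant of the same cultivar that carries a T-DNA insertion in OsSLAC7 (Os01g0385400), a gene named after the slow anion channels. T-DNA is the DNA that Agrobacterium transfers into a plant genome. All plants, wild type and mutant, grew in a greenhouse and were then moved to the field. The labels do not say how many insertion lines were used, whether the insertion was homozygous, or whether each sample was a separate plant, so p-values measure only the spread between these samples. By its title the series is about damaged mutant leaves and their protective response, and the comparison asks which transcripts differ between the leaves of both genotypes.

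Heat-shock proteins are chaperones, which hold, refold or pull apart proteins that have lost their shape. Small heat-shock proteins bind unfolding proteins without using ATP, the HSP90 family matures signalling proteins, and HSP101 (a ClpB protein) dissolves aggregates. Heat stress factors (HSFs) are the transcription factors that switch chaperone genes on: class A members carry activator motifs, while class B and class C members lack them. The same genes are known to be expressed in unheated plants too, in particular in ripening seeds and under drought or oxidative stress.

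Values are log2 RMA values, on which a difference of 1 is a doubling; RMA equalises the distribution of intensities between arrays. A gene is said to have risen or fallen where limma gave a Benjamini-Hochberg adjusted p under 0.05 over all 17905 genes. The 6 arrays had medians over genes between 7.21 and 7.60, and correlations within groups ran from 0.995 to 0.998. The 3 mutant medians (7.60, 7.42 and 7.40) lay above the 3 wild type medians (7.29, 7.27 and 7.21), and the median change of all genes was 0.10. No probe set was paired with Os01g0385400 in the tables used, so the disruption itself was not checked on the arrays. Among 6 listed leaf blade genes, the antenna gene CAB2R had a level of 13.89 ± 0.01 in wild type and 14.01 ± 0.08 in mutant leaves (SD, n = 3 each), and the Rubisco small subunit gene OsrbcS 14.30 ± 0.02 and 14.20 ± 0.02. Of the same list, PSB28, a gene of photosystem II, fell by 0.56 (limma adjusted p = 0.00193), and RBCS1, also named for the Rubisco small subunit, was low in both genotypes (2.56 ± 0.18 and 2.54 ± 0.17). In whole leaves, a change in the share of a cell type and a change in RNA per cell cannot be told apart.

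The heat-shock genes did not move as one group in mutant leaves. Of the 43 members, 9 rose, 5 fell and 29 did not pass, so that 32.6% passed, beside 27.3% of all genes. Over all genes 21% rose and 6.32% fell, so the 20.9% of members that rose lies near that background, and the 11.6% that fell rests on 5 genes. Small heat-shock proteins went both ways (3 up, 4 down of 19), while the larger chaperones (2 up of 4) and the class C HSFs (2 up of 3) had rises and no fall past the threshold. The median difference of the members was 0.13, beside 0.10 for all genes, and 26 members (60.5%) differed upward, beside 63.8% of all genes.

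How the arrays are centred decides the balance of rises and falls. With each array centred on the median of its genes, which moves the median of all genes by -0.21, 5 members rose and 13 fell. With a milder shift, by the median over genes of an array's deviation from the gene means, 7 rose and 9 fell. The balance over all genes turned the same way, from 3752 up and 1131 down. It was 1804 up and 3935 down with the first scaling, and 2704 and 2167 with the second. None of the 14 called members changed direction under either scaling, whereas 11 of the members not called did under the first and 4 under the second. Groups did not overlap in 25 members, beside 45.6% of all genes; the mutant arrays lay above in 15 and below in 10, beside 32.2% and 13.4%.

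**Figure D1:**
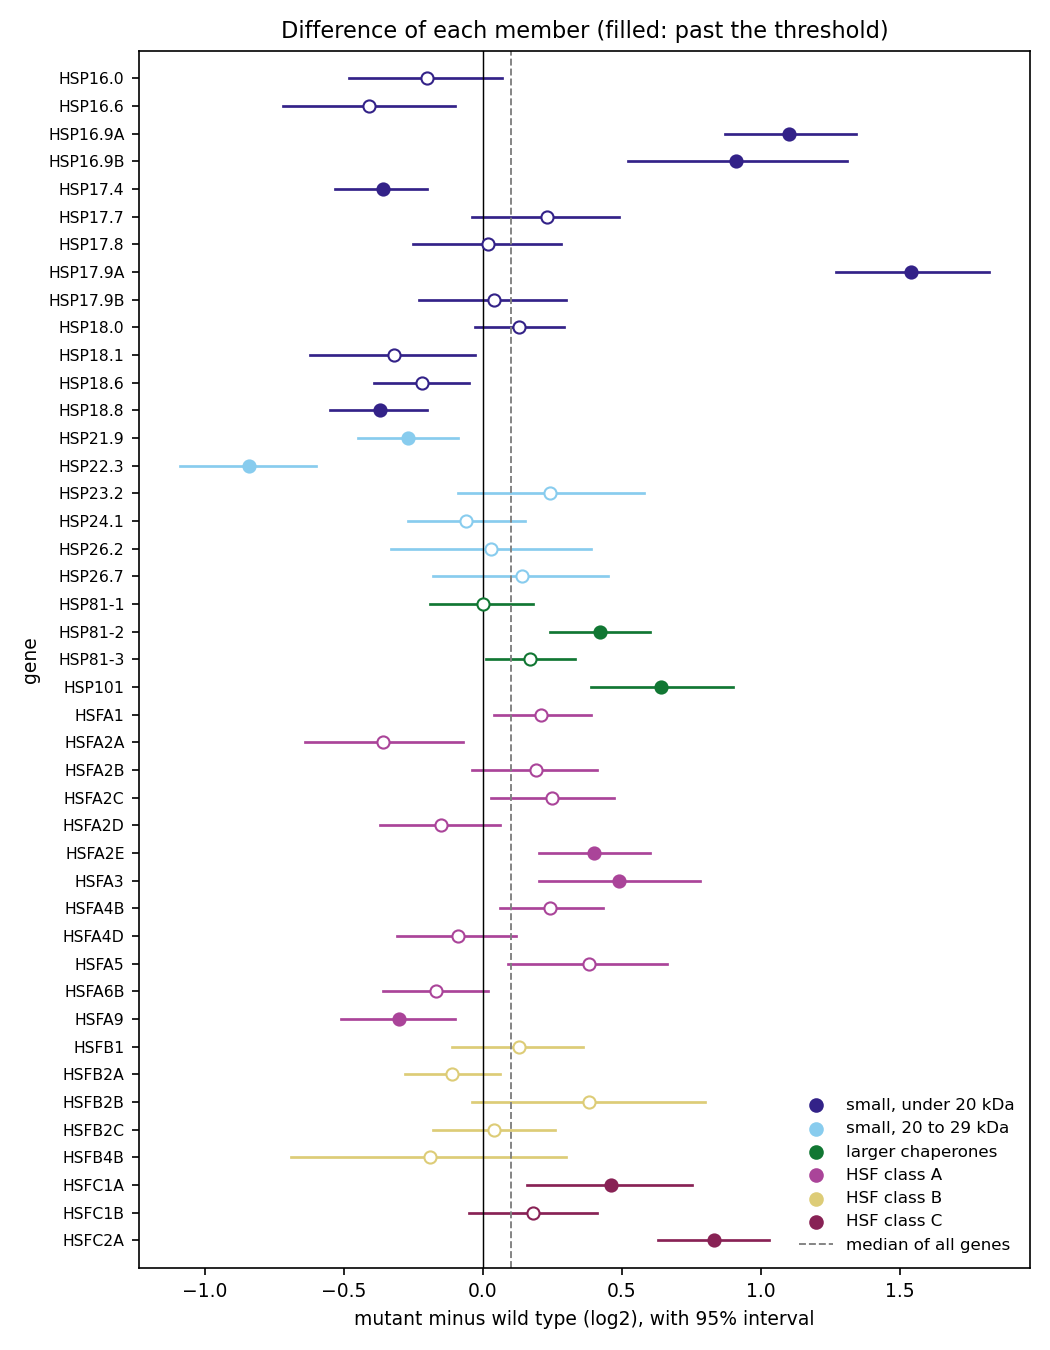
Difference between mutant and wild type means (x axis, log2) for each of the 43 members (y axis), with the 95% interval of limma, coloured by class; filled points passed the threshold and the dashed line is the median of all genes. HSP17.9A at 1.54 and HSP22.3 at -0.84 are the ends of the range, and most open points lie within 0.4 of 0.

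The small heat-shock proteins under 20 kDa, most of them cytosolic, held the largest changes of the whole set. HSP17.9A, HSP16.9A and HSP16.9B, cytosolic proteins of class I, rose, by 2.92, 2.15 and 1.88 times. HSP17.4, also of class I, and HSP18.8 fell. The other 8 of these 13 genes did not pass, 3 of them with an unadjusted p under 0.05. The median difference of the 13 was 0.02. Of them 23.1% rose and 15.4% fell, beside 21% and 6.32% of all genes.

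HSP17.9A (LOC4332357) had values of 8.53, 8.55 and 8.69 on the wild type arrays and 10.05, 10.38 and 9.98 on the mutant arrays. The lowest mutant value lay more than 1 log2 unit above the highest wild type value. The difference was 1.54 (SE 0.12, 95% interval 1.27 to 1.82), with a limma adjusted p of 0.000177.

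HSP16.9A (LOC4325697) went from 5.24, 5.38 and 5.52 to 6.42, 6.62 and 6.41, a difference of 1.10 (SE 0.10, limma adjusted p = 0.000378). HSP16.9B (LOC4325698) went from 5.18, 5.74 and 5.75 to 6.66, 6.45 and 6.30, a difference of 0.91 (SE 0.17, limma adjusted p = 0.00789). In both genes every mutant array lay above every wild type array, and wild type replicate 1 was the lowest of all 6. The genes are close relatives, the RefSeq entry used for HSP16.9A carries both names, and whether their probe sets bind each other's transcripts was not tested, so the pair may not count as separate measurements.

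HSP17.4 (LOC4332360) had 8.56, 8.63 and 8.60 in wild type and 8.25, 8.25 and 8.19 in mutant leaves. It fell by 0.36 (SE 0.07, limma adjusted p = 0.00822), or 1.29 times. HSP18.8 (LOC4343386) had 11.34, 11.28 and 11.22 against 10.86, 10.97 and 10.88, and fell by 0.37 (SE 0.07, limma adjusted p = 0.0104). These falls are small. SDs within groups were 0.03 for HSP17.4 and 0.06 for HSP18.8 (n = 3 each), and the groups did not overlap. Both rest on the values that gave the adjusted p and are no separate support. HSP18.8 was read by a probe set ending in _x_at, a kind that can bind related transcripts.

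Of the genes that did not pass, HSP16.6 had the largest difference, with 4.38, 4.28 and 4.35 in wild type and 3.64, 3.96 and 4.18 in mutant leaves. All its mutant values were the lower ones, but they spread more (SD 0.27, beside 0.05 in wild type), and the difference of -0.41 had an adjusted p of 0.0564 by limma. HSP18.6, whose probe set had the highest mean of the class, had 11.78, 11.82 and 11.74 against 11.53, 11.63 and 11.50, a difference of -0.22 with a limma adjusted p of 0.0575. Both passed with the centrings named above. HSP18.0, of cytosolic class II, differed by 0.13, and HSP16.0, of the peroxisome, by -0.20. The others were HSP18.1 (-0.32), HSP17.7 (0.23), HSP17.9B (0.04) and HSP17.8 (0.02).

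**Figure D2:**
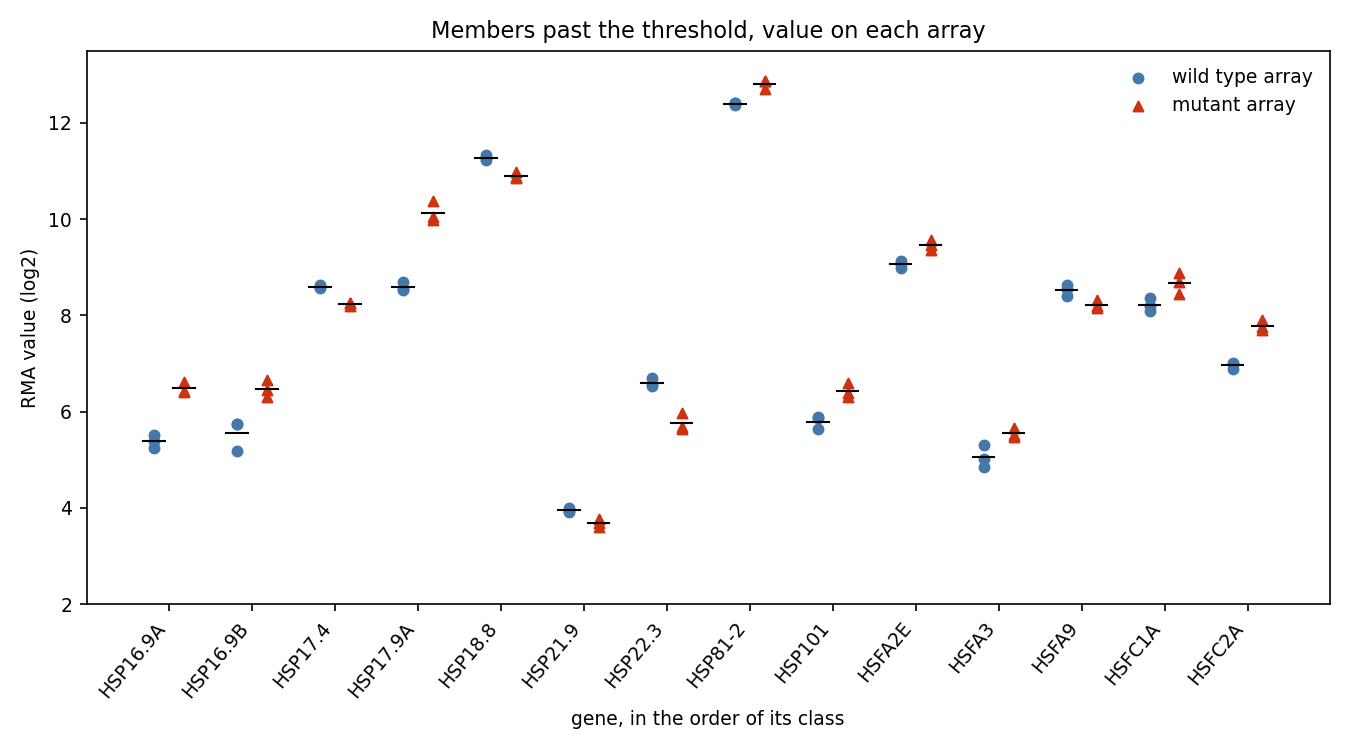
RMA values (y axis, log2) of the 14 members past the threshold on each of the 3 wild type arrays (circles) and 3 mutant arrays (triangles), with a line at each group mean. The groups are apart in all 14 genes, by most in HSP17.9A, but the genes were picked by these same values. Values of different genes come from different probe sets and cannot be ranked.

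Several small heat-shock genes lie side by side in the genome, and the rows on chromosomes 1 and 3 held both called genes and genes that did not pass. In the gene order of RefSeq assembly ASM3414082v1, HSP16.6, HSP17.9B, HSP16.9C, HSP16.9A and HSP16.9B follow one another on chromosome 1 with no other gene between them. The last 2 of this row rose and no other passed: HSP17.9B differed by 0.04 (95% interval -0.23 to 0.30), and HSP16.6 by -0.41 (95% interval -0.72 to -0.10). HSP17.9B was at 10.53, 10.53 and 10.45 in wild type and 10.53, 10.75 and 10.33 in mutant leaves, so its groups overlapped.

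On chromosome 3, HSP17.9A is followed, after 4 other genes, by HSP17.4, HSP18.1 and HSP17.7 in direct succession. HSP17.9A rose (95% interval 1.27 to 1.82) and HSP17.4 fell (95% interval -0.53 to -0.20). HSP18.1 had 8.63, 8.87 and 8.78 against 8.33, 8.70 and 8.28, a difference of -0.32 (95% interval -0.62 to -0.03) that did not pass (limma adjusted p = 0.0966). HSP17.7 had 7.70, 7.72 and 7.92 against 7.95, 8.21 and 7.86, a difference of 0.23 (95% interval -0.04 to 0.49). The row thus held a gene that rose, one that fell and a pair that did not pass, all of the same class I; whether the neighbours differ from each other was not tested.

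**Figure D3:**
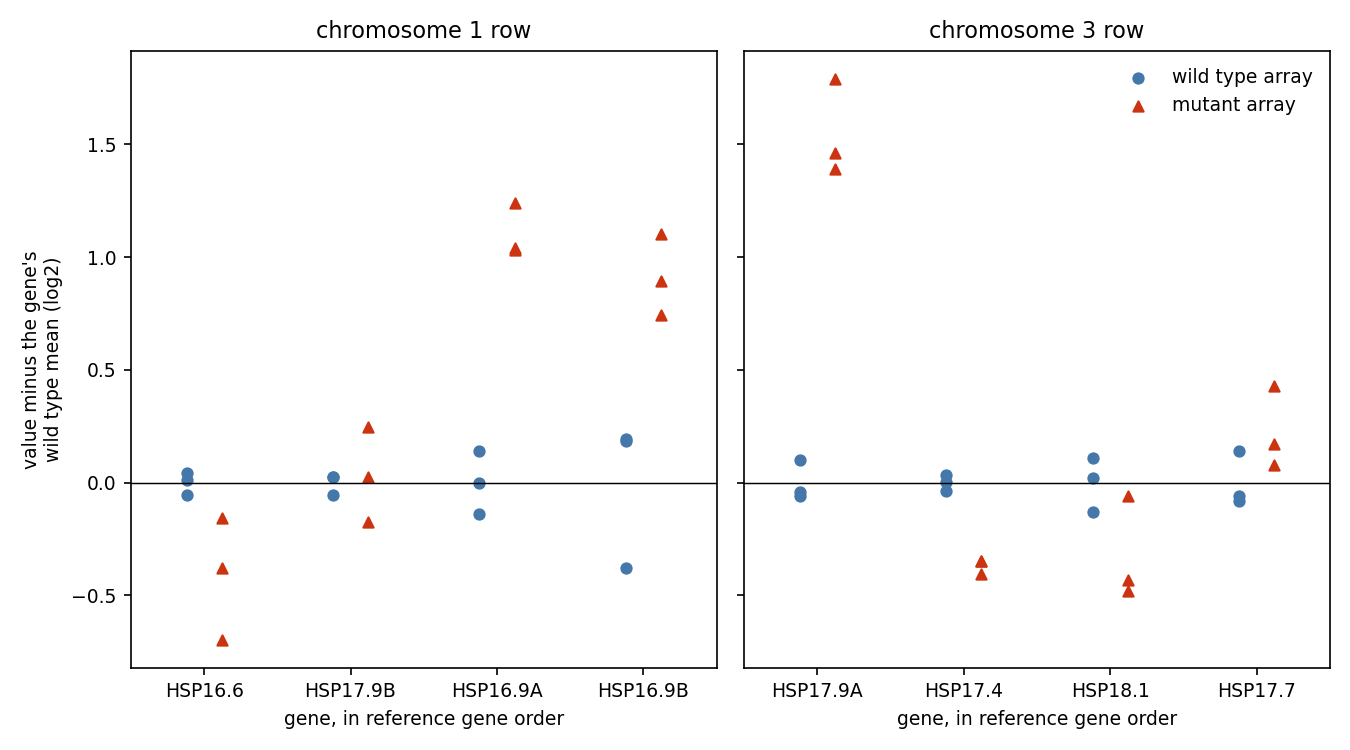
Values on each array minus the gene's wild type mean (y axis, log2) for the measured small heat-shock genes of the rows on chromosomes 1 and 3, in reference gene order (x axis, not to scale). HSP16.9A, HSP16.9B and HSP17.9A stand clear above 0 in the mutant, while HSP17.9B stays around 0 and HSP17.4 lies below.

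The small heat-shock proteins of 20 kDa and over had 2 falls and no rise among 6 genes. They include forms of the mitochondria, the plastids and the endoplasmic reticulum. The 33.3% that fell, beside 6.32% of all genes, rests on those 2 falls. HSP22.3 (LOC4339231) had 6.54, 6.70 and 6.57 in wild type and 5.97, 5.68 and 5.64 in mutant leaves. It fell by 0.84 (SE 0.11, 95% interval -1.09 to -0.60, limma adjusted p = 0.0015), or 1.79 times, which was the largest fall of the 43 genes. HSP21.9 (LOC4350180) had 3.93, 4.0 and 3.92 against 3.76, 3.60 and 3.68, and fell by 0.27 (SE 0.08, limma adjusted p = 0.0365).

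The fall of HSP21.9 is the less firm of the pair. Its values lie below the lower quartile of the genes, which was between 4.97 and 5.34 on the arrays. Like HSP18.8, it was read by a probe set ending in _x_at. Its call was lost in 9 of 15 alternatives, among them those without any 1 of the wild type arrays. Without _x_at and _s_at probe sets it was lost too (difference -0.22, limma adjusted p = 0.0982). HSP23.2, of the endoplasmic reticulum, had the largest difference of those that did not pass, with 3.10, 2.77 and 2.84 against 3.25, 3.32 and 2.86 (difference 0.24, limma adjusted p = 0.239). The mitochondrial HSP24.1 had 10.20, 10.29 and 10.21 against 10.14, 10.32 and 10.05, a difference of -0.06 (95% interval -0.27 to 0.15). HSP26.2 (0.03) and the plastid HSP26.7 (0.14) had overlapping groups too, and their signs turned with the centring on the median of the genes.

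Among the larger chaperones, HSP101 and HSP81-2 rose, and HSP81-1 and HSP81-3 did not pass. The 50% that rose, beside 21% of all genes, rests on a class of 4 genes. The HSP81 genes belong to the HSP90 family. No other member of the larger families was matched by the naming rule. HSP101 (LOC4339343), the ClpB disaggregase of the cytosol that is needed for survival of severe heat, had 5.63, 5.89 and 5.86 in wild type and 6.60, 6.31 and 6.39 in mutant leaves. All mutant values were higher, and the rise was 0.64 (SE 0.11, limma adjusted p = 0.00546), or 1.56 times.

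HSP81-2 (LOC4347402) had 12.42, 12.41 and 12.37 against 12.87, 12.70 and 12.87. It rose by 0.42 (SE 0.08, limma adjusted p = 0.00797), or 1.34 times. With arrays centred on the median of their genes this call was lost (difference 0.20, adjusted p = 0.115). HSP81-3, separated from HSP81-2 by 2 genes on chromosome 9, had 13.76, 13.85 and 13.85 against 13.99, 13.98 and 13.99, a difference of 0.17 (limma adjusted p = 0.108) that turned to -0.04 with the same centring. HSP81-3 passed upward in 4 of 16 alternatives: with an intensity trend (adjusted p = 0.00376), among genes above the median (0.0426), with the mean of its probe sets (difference 0.26, adjusted p = 0.0382) and without _x_at and _s_at probe sets (difference 0.42, adjusted p = 0.0175). HSP81-1 had 13.06, 13.12 and 13.12 against 13.18, 12.99 and 13.12, a difference of 0.00 with a 95% interval from -0.19 to 0.18.

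Of the 12 class A factors, the activators of the heat-shock response, HSFA3 and HSFA2E rose (16.7%) and HSFA9 fell (8.33%). Over all genes 21% rose and 6.32% fell, so these shares lie near that background. The other 9 did not pass, 5 of them with an unadjusted p under 0.05. Of all genes, 2376 of the 13022 that did not pass had such a p. The median difference of the 12 was 0.20. None of the 3 changes exceeded 0.5 on the log2 scale. HSFA1, named like the factors that start the heat response in tomato and Arabidopsis, differed by 0.21 (limma adjusted p = 0.0691), with 9.15, 9.20 and 9.19 against 9.47, 9.38 and 9.32.

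HSFA2E (LOC4334418) had 8.98, 9.14 and 9.07 in wild type and 9.47, 9.56 and 9.35 in mutant leaves, and rose by 0.40 (SE 0.09, limma adjusted p = 0.0142). HSFA3 (LOC4329526) had 5.31, 5.01 and 4.85 against 5.48, 5.52 and 5.65, and rose by 0.49 (SE 0.12, limma adjusted p = 0.024). In both, mutant and wild type arrays did not overlap, and in HSFA3 the wild type arrays were the more spread. Neither call held with arrays centred on the median of their genes (adjusted p = 0.2 and 0.122), nor without wild type replicate 3 (adjusted p = 0.0527 and 0.0776), and that of HSFA3 was lost in 6 of 15 alternatives.

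HSFA9 (LOC4332113), whose Arabidopsis namesake acts in maturing seeds, had 8.41, 8.54 and 8.63 against 8.32, 8.20 and 8.15. It fell by 0.30 (SE 0.09, limma adjusted p = 0.0405), a call lost in 6 of 16 alternatives, among them those without wild type replicate 2 or 3 and without mutant replicate 2 or 3. HSFA5, a factor that restrains class A4 factors in tomato and Arabidopsis, had the largest difference of those that did not pass, with 6.83, 6.64 and 6.68 against 7.34, 7.02 and 6.92. Its groups were separated, and its difference of 0.38 had a limma adjusted p of 0.0548. HSFA2D, whose probe set had the highest mean of the class, had 11.60, 11.42 and 11.41 against 11.44, 11.24 and 11.29 (difference -0.15, limma adjusted p = 0.238).

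HSFA4D is SPL7, a gene whose loss gives spotted leaves in rice, and it differed by -0.09 (95% interval -0.31 to 0.12), with 9.27, 9.44 and 9.45 in wild type and 9.25, 9.44 and 9.19 in mutant leaves. Its groups overlapped. HSFA2A, of the subgroup that keeps the heat response going in Arabidopsis, differed by -0.36 (limma adjusted p = 0.0666), with all mutant values below those of wild type. The other members were HSFA2C (0.25), HSFA4B (0.24), HSFA2B (0.19) and HSFA6B (-0.17). Thus 4 of the 5 genes of the HSFA2 subgroup did not pass on their chosen probe sets, and their signs differed. A second probe set of HSFA2C rose by 0.53 (adjusted p = 0.0198 by limma over all probe sets). The entry of HSFA2C also carries the name of another protein, so which transcript each of its probe sets reads is uncertain.

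None of the 5 class B factors, which act as repressors of heat genes in Arabidopsis, passed the limma threshold. None had an unadjusted p under 0.05. Over all genes 27.3% passed, and 5 genes are few to set beside that share. Counts under the 16 alternatives ran from 0 to 1 called gene. HSFB2B had the largest difference, with 6.48, 7.01 and 6.63 against 7.41, 6.97 and 6.87. The groups overlapped, and the difference of 0.38 had a 95% interval from -0.04 to 0.80. HSFB2A, whose probe set had the highest mean of the class, had 10.36, 10.46 and 10.40 against 10.30, 10.25 and 10.34, a difference of -0.11 (limma adjusted p = 0.286). HSFB1 (0.13), HSFB2C (0.04) and HSFB4B (-0.19) overlapped too on their chosen probe sets, and in HSFB4B the mutant arrays spread from 5.64 to 6.54. A second probe set of HSFB2C rose by 0.63 (adjusted p = 0.0123 by limma over all probe sets), with 7.26, 7.16 and 6.97 against 7.84, 7.60 and 7.86, and a further one differed by -0.04.

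In class C, a class that is enlarged in grasses, HSFC2A and HSFC1A rose and HSFC1B did not pass. The 66.7% that rose, beside 21% of all genes, rests on a class of 3 genes. HSFC2A (LOC4328809) had 6.99, 7.02 and 6.88 in wild type and 7.76, 7.91 and 7.70 in mutant leaves. The rise of 0.83 (SE 0.09, 95% interval 0.63 to 1.03, limma adjusted p = 0.000661), or 1.78 times, was the largest difference among the 20 HSFs. HSFC1A (LOC4326685) had 8.09, 8.36 and 8.20 against 8.69, 8.88 and 8.44, and rose by 0.46 (SE 0.13, limma adjusted p = 0.0342). Its lowest mutant value lay just above its highest wild type value, and the call was lost in 7 of 16 alternatives. HSFC1B had 5.02, 4.95 and 4.92 against 4.95, 5.27 and 5.20, a difference of 0.18 (limma adjusted p = 0.22) that the centring on array medians turned to -0.04.

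Replicates of the members agreed as closely as those of other genes. The median standard deviation within groups was 0.124 for the 43 members and 0.125 for all genes. It was 0.155 for the small heat-shock proteins and 0.0728 for the larger chaperones. Mutant replicate 3 was the lowest mutant array in 22 of 43 members and wild type replicate 1 the lowest wild type array in 23. Without mutant replicate 3, 9 members rose and 4 fell, and without wild type replicate 1 the counts were the same. Without wild type replicate 3, 6 members rose and 3 fell, and without wild type replicate 2, 8 rose and 3 fell. Calls over all genes dropped too, from 3752 up and 1131 down with all arrays. They were 3121 and 748 without mutant replicate 3, and 2991 and 766 without wild type replicate 1. Without wild type replicate 3 they were 2128 and 572, and without wild type replicate 2, 2427 and 573.

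Of the 14 called members, 8 passed in every alternative that gave them a value. The 5 rises among them were HSP17.9A, HSP16.9A, HSP16.9B, HSP101 and HSFC2A. The 3 falls were HSP22.3, HSP17.4 and HSP18.8. Of the 29 members that did not pass, 14 passed in at least 1 alternative and 15 in none. Matching shares of all genes are not given, so these counts cannot be set beside a background.

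Several members, 14 genes in all, were read by more than 1 probe set of their own, in some genes built on the same source sequence. In none were probe sets called in both directions, but only HSP81-3 had more than 1 called probe set, so only there could this occur. HSFA2C and HSFB2C had 1 called probe set each, for HSFA2C at 0.53 beside 0.25 for the chosen one. Of the called members, only HSP21.9 had more than 1 probe set. In HSP81-1 and HSFB2C the probe sets lay 0.3 or more apart. For HSFB2C these were the rise of 0.63 given above, from a mean of 7.13 to 7.76, and the chosen one at 0.04. The second one of HSP81-1 differed by 0.47 (adjusted p = 0.0971 by limma over all probe sets), while the chosen one differed by 0.00.

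Of the 5 probe sets of HSP81-3, 2 that were not chosen rose, by 0.42 and 0.38 (limma adjusted p over all probe sets = 0.0419 and 0.0371). A probe set shared by HSP81-2, HSP81-3 and LOC9267802 rose by 0.52 (adjusted p = 0.0226), and another shared by them differed by 0.14 (adjusted p = 0.326). Whether single-gene probe sets of this family also bind the transcripts of its other members was not tested.

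**Figure D4:**
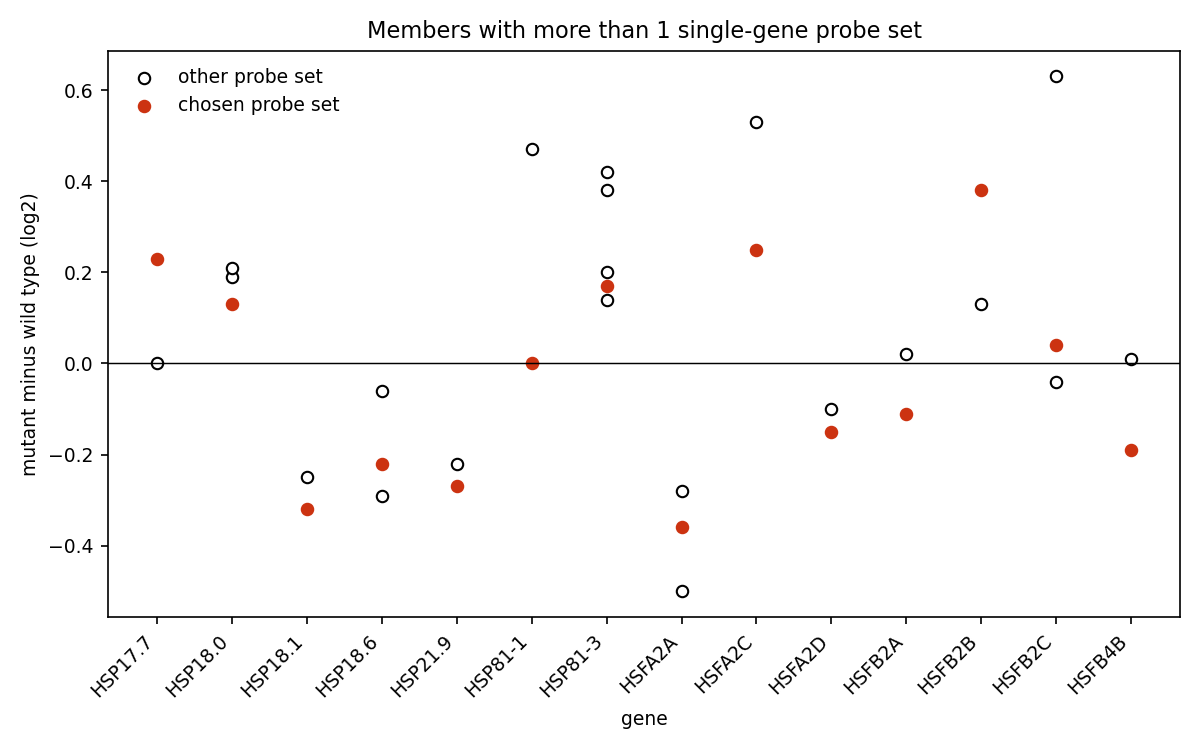
Difference between mutant and wild type means (y axis, log2) of every single-gene probe set of the 14 members that have more than 1 (x axis), with the chosen probe set filled. HSFB2C and HSP81-1 have an open point far above the filled one, and elsewhere the points of a gene lie within 0.3.

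Chaperones and folding factors outside the naming rule were read from a list of names (endoplasmic reticulum chaperones, disulfide isomerases, DnaJ cochaperones, organelle ClpB proteins and the cochaperones SGT1 and RAR1). Of 23 such genes, 5 rose and none fell by limma, while 18 did not pass, none of them with an unadjusted p under 0.05. The 21.7% that rose is near the 21% of all genes. The disulfide isomerases OsPDIL1-5 (1.08), OsPDIL1-4 (0.53) and OsPDIL1-3 (0.72) and the DnaJ protein DJA6 (0.42) were among the 5. OsPDIL1-5 was low in both genotypes, at 3.12 in wild type and 4.20 in mutant leaves, under the lower quartile of the genes. Isomerases that did not pass had differences from -0.28 (OsPDIL1-2) to 0.17 (OsPDIL5-4). BIP1, the main chaperone of the endoplasmic reticulum, differed by -0.09 (limma adjusted p = 0.42), with 12.06, 12.12 and 12.06 in wild type and 12.06, 12.01 and 11.91 in mutant leaves. The organelle relatives of HSP101, CLPB-C (0.10) and CLPB-M (0.01), did not pass.

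Of 19 genes listed for heat and oxidative stress, 7 rose and none fell by limma, and 2 of the other 12 had an unadjusted p under 0.05. The share that rose was 36.8%, beside 21% of all genes. The catalase catA, which breaks down hydrogen peroxide, rose by 1.45 (limma adjusted p = 3.35e-05), and the superoxide dismutase genes SODCC.2 and sodCp rose by 0.69 and 0.62. SODCC.1, CatB and the DREB2 genes DREB2A and DREB2B, of a family of drought and heat transcription factors, made up the rest. DREB2A rose by 0.35 and DREB2B by 0.48 (limma adjusted p = 0.0436 and 0.0339), while DREB2D differed by -0.04 (limma adjusted p = 0.708). None of the 7 ascorbate peroxidase genes, among which HSF targets are known in Arabidopsis, passed; APX5 came nearest with 0.38 (limma adjusted p = 0.0539). The median difference was 0.13 for this list and 0.09 for the other chaperones, beside 0.10 for all genes.

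Some genes listed as markers of other tissues differed between the same arrays. Of 17 panicle and flower organ markers 9 (52.9%) rose, beside 21% of all genes, and none fell by limma, beside 6.32%. Their summed linear level ran from 2760 to 3040 in wild type and from 3570 to 3640 in mutant leaves. Such sums weigh the genes with the highest levels most. The highest here was a MADS2 entry (LOC4343851), at 11.04 in wild type and 11.24 in mutant leaves, that did not pass (limma adjusted p = 0.145). Of 8 markers of dividing cells 3 (37.5%) rose and none fell, with sums from 188 to 191 against 237 to 358. Of 12 markers of seeds and drying tissue 5 (41.7%) rose and none fell. The 5 were LEA19, RAB21, RAB16B, RAB16C and the Em gene. RAB16D differed by -0.30 (limma adjusted p = 0.216), and none of the 6 storage protein genes passed. Sums ran from 2140 to 2250 against 3210 to 3620. In wild type leaves the highest gene of this list was the storage protein gene GLB1, at 10.22 beside 10.25 in mutant leaves. RAB21 went from 7.13 to 10.02. Of 6 leaf blade genes PSB28 (16.7%) fell and none rose, with sums from 50500 to 51100 against 49900 to 51700. Means lay below the median of all genes in 14 of the 17 panicle and flower organ markers and in all 8 of dividing cells. The same held for 8 of the 12 seed and drying tissue markers and 1 of the 6 leaf blade genes. Without detection calls, it is not known which of these were above the background of the array. Whether the listed genes mark other tissues in these samples was not tested. The part of these tissues in the changes of HSP17.9A, HSP16.9A, HSP101 and the other members was not tested either.

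**Figure D5:**
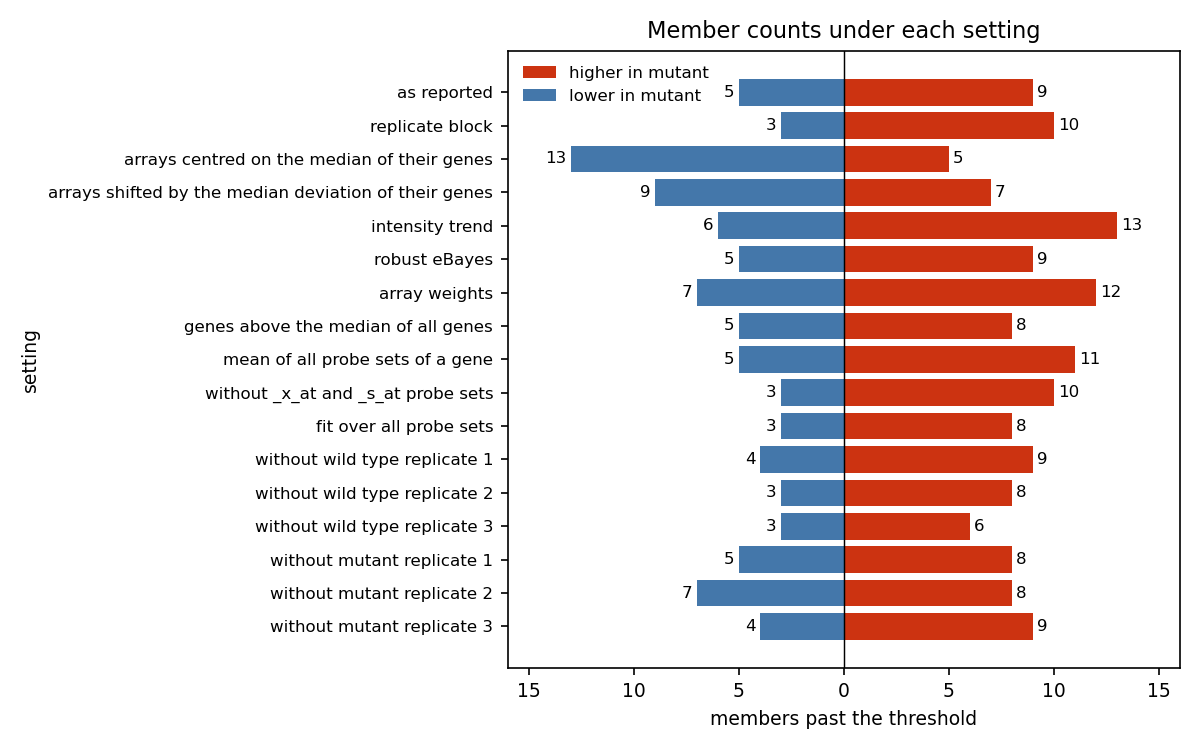
Number of the 43 members past the threshold upward (right) and downward (left) as reported and under each of 16 alternatives (y axis). Rises run from 5 to 13 and falls from 3 to 13, and the split turns toward falls when arrays are centred or shifted.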

How the data were processed

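Biotin-labelled RNA of 6 samples was hybridised to 1 array each. The authors' deposited values are log2 values per probe set, made with RMA (affy package), per the submitters' processing notes; no version is given in the sources used here. The log2 scale was read from the range of the values. Scanner files, detection calls and scan batches were not used here, and precision is limited by the number of arrays.

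Of 57381 probe sets, 123 AFFX controls were left out, 22436 had 1 gene in the platform annotation, 95 several and 34727 none. Genes were named through Entrez identifiers in the RefSeq table of assembly ASM3414082v1, whose coordinates were used only for gene order. The genotypes were compared by limma 3.58.1, run in R 4.3.3 (lmFit, then eBayes; two-sided; 3 arrays a group; no block), with Benjamini-Hochberg adjusted p over all 17905 genes. With 3 arrays a group, the smallest p of an exact permutation test would be 0.1. The procedure was tested on simulated arrays. Replicate numbers did not pair the arrays.

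Members, gene lists and alternatives were chosen with earlier results of these data known. Array values are given for all called members and, per class, for the member not called with the largest difference and the one with the highest mean. HSFA1, HSFA4D, HSP17.9B, HSP18.1, HSP17.7, HSP81-1 and the genes with discordant probe sets were added to these after their values were seen. Outside the naming rule, the same holds for BIP1, CLPB-C, CLPB-M, CatB, DREB2A, DREB2B, DREB2D, APX5, RAB16C, CAB2R, RBCS1, OsrbcS, GLB1 and the MADS2 entry LOC4343851. From the list of other chaperones, names of unrelated proteins were removed. The leaf blade list kept 6 of its 7 matched genes. Figures were drawn with matplotlib 3.10.9 and pandas 2.3.3 in Python 3.11.15.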

Additional observations from a re-analysis of the deposited data

How the results depend on the processing

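Over 16 alternatives, the members that rose numbered from 5 to 13, beside 9 as reported, and those that fell from 3 to 13, beside 5. With arrays centred on the median of their genes 5 rose and 13 fell, against 1804 and 3935 of all genes; with arrays shifted by the median deviation 9 members and 2167 genes fell. Both subtract 1 value from a whole array, a larger one on the mutant arrays, which favours falls over rises by construction. In the fit over all probe sets 3 members fell, and 2477 genes rose and 620 fell. Leaving out the _x_at and _s_at probe sets kept 41 members, of which 3 fell. With the replicate number as a block 10 members rose and 3 fell. The deviations of equally numbered arrays correlated at 0.117, 0.116 and -0.017, and 2 of 6 arrays correlated best with their own number, so the numbers are not taken as pairs. With 1 array left out, from 6 to 9 members rose and from 3 to 7 fell, and from 2128 to 3639 genes rose and from 572 to 1024 fell. The fewest calls came without wild type replicate 3 (6 members and 2128 genes up, 3 and 572 down) and without wild type replicate 2 (8 and 2427 up, 3 and 573 down), and without mutant replicate 3 the falling genes numbered 748. Apart from the construction named above, the cause of these changes was not tested. Among the 24 members with array values by rule, HSP24.1, at -0.06, ran from -0.14 to 0.00 with 1 array left out, without mutant replicate 2 and 3, respectively. HSP81-3 and HSFC1B, with differences of 0.17 and 0.18, each turned to -0.04 by the centring on array medians, while HSP81-3 passed upward in 4 other alternatives. No called member changed direction in any alternative. Without detection calls, it is not known which of the 8 members with means under 4.97 were above the background of the array.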

Other observations

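The RefSeq entries of HSFA2C and HSFA2D also carry the names ARD1 and ARD2, of acireductone dioxygenases that recycle methionine, so a probe set assigned to either entry may read another transcript than that of the factor. For HSFA2C, the probe set built on AY344488 rose by 0.53 (adjusted p = 0.0198 by limma over all probe sets), from a mean of 6.22 to 6.75. The one built on AK103834, which represents the gene in the text, differed by 0.25 (adjusted p = 0.167), from 6.47 to 6.72. For HSFA2D, both probe sets differed by little, at -0.15 and -0.10, with adjusted p of 0.36 and 0.473 by limma over all probe sets. For HSFA2A, 3 probe sets lay at -0.36, -0.50 and -0.28, all in the same direction, and none passed (adjusted p from 0.0866 to 0.452 by limma over all probe sets).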
